A study of Homo sapiens with 5 samples.

Results

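The genes described here are the plasminogen activators PLAT and PLAU, the receptor PLAUR, and the inhibitors SERPINE2 and SERPINB2, 5 of the 23459 genes in the deposited count table. They were found by matching Entrez identifiers to NCBI gene symbols. The set was selected on the CPM values of this same contrast, in which PLAT and SERPINB2 were much higher in the cells with raised JUN, so the differences of its members between the groups are a description of these libraries and were not used as a test. The libraries came from MCF10A SAM cells, clonal derivatives of an immortalised human mammary epithelial line that all carry the activators dCas9-VP64 and MCP-p65-HSF1. Of these cells, 3 libraries were from cultures that received NTC, a guide with no target (replicates 1 to 3), and 2 from cultures infected with sgJUN#1, a guide that brings the activators to the JUN promoter (replicates 1 and 2). All grew in the same medium with horse serum, insulin, hydrocortisone, cholera toxin and EGF, and no dose or time of JUN induction was given in the sources used here.

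Plasminogen is a circulating zymogen that is cut to the broad protease plasmin by tissue-type plasminogen activator (PLAT, tPA) or urokinase (PLAU, uPA). Urokinase acts mainly at the cell surface, where it is held by its receptor PLAUR (uPAR). Serpins trap the activators in inactive complexes: SERPINB2 (PAI-2) inhibits urokinase and also has a large intracellular pool, and SERPINE2 (protease nexin-1) inhibits urokinase, thrombin and other serine proteases. In epithelial cells the system is best known for its part in wound closure, matrix breakdown and invasion. JUN is a subunit of the dimeric transcription factor AP-1, and PLAU, PLAUR and SERPINB2 are textbook genes with AP-1 sites in their control regions.

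The stretches upstream of SERPINB2 and PLAUR are shown because, of the members with a promoter window in RefSeq, only these held a match to an AP-1 motif. Both are from GRCh38.p14, run 5′ to 3′ on the strand of the gene and end 1 base before its start, and capitals mark the matches to TGANTCA or TGANNTCA. The SERPINB2 stretch is chr18:63887455-63887704 on the plus strand and the PLAUR stretch is chr19:43670170-43670419 on the minus strand.
SERPINB2: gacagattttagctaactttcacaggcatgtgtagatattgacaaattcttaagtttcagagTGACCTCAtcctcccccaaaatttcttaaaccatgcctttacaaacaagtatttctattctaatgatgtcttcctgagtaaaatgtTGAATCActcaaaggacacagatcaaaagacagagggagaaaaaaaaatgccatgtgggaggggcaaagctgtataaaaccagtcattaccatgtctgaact
PLAUR: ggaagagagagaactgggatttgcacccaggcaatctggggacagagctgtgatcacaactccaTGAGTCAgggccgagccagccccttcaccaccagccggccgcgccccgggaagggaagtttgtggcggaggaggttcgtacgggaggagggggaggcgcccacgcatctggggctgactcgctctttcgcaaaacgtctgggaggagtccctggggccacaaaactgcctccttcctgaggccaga

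In PLAUR the match was TGAGTCA, with its first base 186 bases before the start, which is the motif TGACTCA read on the other strand. In SERPINB2 it was TGAATCA, 102 bases before the start, and a further match to TGANNTCA, TGACCTCA, began 188 bases before it. Each motif was searched on both strands in windows from 250 bases before to 50 bases after a start. TGACTCA, the common AP-1 motif, was found in 4.95% of the 35116 RefSeq windows of this length, and TGANTCA, which includes it, in 7.71%. The looser form TGANNTCA was found in 11.5%, the cyclic AMP response element TGACGTCA, which it includes, in 1.85%, and the TEAD motif GGAATG in 14.0%. PLAU and SERPINE2 have 2 windows each, and neither window of either gene held any of these motifs. PLAT was not matched to a window. A match is a stretch of letters in these windows and was not tested for binding.

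Library totals ran from 2455627 to 4988062 counts, and the 3 counts that an observed 0 still allows equal 0.617 to 1.22 CPM, the count per megaread of the TMM-scaled library total. The level of JUN checks the labels. JUN had 91, 89 and 42 counts in NTC replicates 1, 2 and 3 and 831 and 742 counts in sgJUN#1 replicates 1 and 2, or 25.0, 36.1 and 9.27 CPM against 171 and 264 CPM. The 2 sgJUN#1 libraries were thus above every NTC library, with a log2 fold change of 3.25 (SE 0.484) and an edgeR quasi-likelihood Benjamini-Hochberg adjusted p of 0.0733. Only NTC has a replicate 3, so the alternative with a replicate block and that without NTC replicate 3 are not separate checks. In 4 of 11 alternatives JUN passed, with an adjusted p of 7.36e-12 with DESeq2, 0.000115 with a replicate block, 0.0144 without NTC replicate 2 and 0.00121 without NTC replicate 3. In the other 7 it did not, with adjusted p-values from 0.0668 to 0.322, among them 0.279 without NTC replicate 1. The labelled cell type was checked against 10 mammary epithelial markers. All 10 passed the filter on low counts, and their summed level was 586 to 1238 CPM in NTC and 769 to 1197 CPM in sgJUN#1. Of the 10, 5 had a log2 fold change above 0 and 5 below 0. With edgeR 0 were called, against 0.206% of all tested genes, and with DESeq2 0, against 0.975% of its genes. The groups did not overlap for EPCAM and KRT17, which were above NTC, or for ITGB4 and KRT14, which were below it. This was 20.0% of the 10 in each direction, against 12.2% above and 12.8% below for all tested genes. EPCAM, an epithelial adhesion protein, had 7.30 to 23.6 CPM in NTC and 56.3 and 143 CPM in sgJUN#1, and the integrin subunit ITGB4 had 47.4 to 291 CPM in NTC and at most 26.3 CPM in sgJUN#1. The part of these markers in the results was not tested. Markers of other cell types were also counted. Of 8 endothelial markers, 7 had a mean under 5 CPM, and the list summed to 14.0 to 20.1 CPM in NTC and 14.3 to 15.2 CPM in sgJUN#1. Of 8 monocyte and macrophage markers, 6 had a mean under 5 CPM, AIF1 and TYROBP had no count in any library, and the list, which was mostly CSF1R, summed to 232 to 244 CPM in NTC and 212 to 243 CPM in sgJUN#1. Of 7 fibroblast markers, 5 had a mean under 5 CPM, and the list, mostly PDGFRA and DCN, summed to 190 to 299 CPM in NTC and 179 to 217 CPM in sgJUN#1. Both sgJUN#1 libraries lay above NTC for the fibroblast marker COL1A1, at 2 to 4 counts in NTC and 11 and 3 counts in sgJUN#1. They were also above it for COL3A1, at 0 to 1 count in NTC and 3 and 3 counts in sgJUN#1. They lay below NTC for PDGFRA, at 164 to 207 CPM in NTC and 148 and 161 CPM in sgJUN#1. The endothelial marker KDR was also below, at 3 to 7 counts in NTC and 0 and 1 counts in sgJUN#1. The part of other cell types in the results was not tested.

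PLAT, which encodes tissue-type plasminogen activator (Entrez 5327, GRCh37 chromosome 8, 42032236 to 42065227, minus strand), was the most abundant member in sgJUN#1. It had 93, 65 and 111 counts in NTC replicates 1, 2 and 3 and 1259 and 591 counts in sgJUN#1 replicates 1 and 2. On the CPM scale these were 25.5, 26.4 and 24.5 in NTC and 259 and 211 in sgJUN#1. The groups did not overlap, and the lowest sgJUN#1 library stood far above the highest NTC library. The NTC mean was 25.5 ± 0.929 CPM (SD, n = 3), and the mean of sgJUN#1 was 235 ± 34.2 CPM (SD, n = 2), a ratio of means of 9.22. The fitted log2 fold change was 3.21 (SE 0.200), which was the tenth highest of 13616 tested genes. In bulk RNA, more cells that express a gene and more RNA per cell cannot be told apart.

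PLAU encodes urokinase (Entrez 5328, GRCh37 chromosome 10, 75668935 to 75677254, plus strand). It had 62, 47 and 24 counts in NTC and 150 and 105 counts in sgJUN#1, or 17.0, 19.1 and 5.30 CPM against 30.9 and 37.4 CPM. Both sgJUN#1 libraries were above all NTC libraries, and NTC replicate 3 was the lowest of all 5. The NTC mean was 13.8 ± 7.42 CPM (SD, n = 3), and the mean of sgJUN#1 was 34.1 ± 4.64 CPM (SD, n = 2), with a log2 fold change of 1.34 (SE 0.440). Without NTC replicate 3 the log2 fold change was 0.92. PLAU overlaps C10orf55, a non-coding gene on the opposite strand at 75669727 to 75682535. C10orf55 had 66, 47 and 25 counts in NTC and 158 and 109 counts in sgJUN#1, at most 8 more than PLAU in any library. The sources used here do not say whether strand was used in counting, so the counts of these genes may be the same reads, and only their joint level is certain.

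PLAUR encodes the urokinase receptor, an anchor without a transmembrane part that holds urokinase at the cell surface (Entrez 5329, GRCh37 chromosome 19, 44150247 to 44174699, minus strand). It had 110, 160 and 101 counts in NTC and 359 and 230 counts in sgJUN#1. The CPM values were 30.2, 64.9 and 22.3 in NTC and 73.8 and 82.0 in sgJUN#1. The groups did not overlap, but NTC replicate 2 came close to the sgJUN#1 libraries and the other NTC libraries did not. The NTC mean was 39.1 ± 22.7 CPM (SD, n = 3), and the mean of sgJUN#1 was 77.9 ± 5.74 CPM (SD, n = 2), with a log2 fold change of 1.02 (SE 0.389). Without NTC replicate 2 the log2 fold change was 1.57.

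SERPINB2 encodes plasminogen activator inhibitor 2 (Entrez 5055, GRCh37 chromosome 18, 61538926 to 61571122, plus strand). It had 2, 1 and 1 counts in NTC and 65 and 34 counts in sgJUN#1. The NTC libraries were all below the level of 3 counts, at 0.548, 0.406 and 0.221 CPM, and the sgJUN#1 libraries stood at 13.4 and 12.1 CPM. Over the groups this was 4 counts of 10582378 against 99 counts of 7754316, a ratio of 33.8 with an exact 95% interval of 12.8 to 126, which covers counting error only. The fitted log2 fold change of 4.96 (SE 0.488) was the second highest of the tested genes, but it depends on the small count that the fit adds to values near 0. SERPINB2 was thus close to undetected in the control cells and present at a modest level with sgJUN#1, far below PLAT in the same libraries.

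SERPINE2 encodes protease nexin-1, a secreted inhibitor (Entrez 5270, GRCh37 chromosome 2, 224839762 to 224904035, minus strand). It had 334, 286 and 197 counts in NTC and 422 and 181 counts in sgJUN#1, or 91.6, 116 and 43.5 CPM against 86.8 and 64.5 CPM. The groups overlapped, and the lowest and the highest library were both NTC libraries. The NTC mean was 83.7 ± 36.9 CPM (SD, n = 3), and the mean of sgJUN#1 was 75.6 ± 15.8 CPM (SD, n = 2), with a log2 fold change of -0.13 (SE 0.367). The sign of this value turned without NTC replicate 2, to 0.17, and without sgJUN#1 replicate 2, to 0.06, so no direction is given for SERPINE2.

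**Figure D1:**
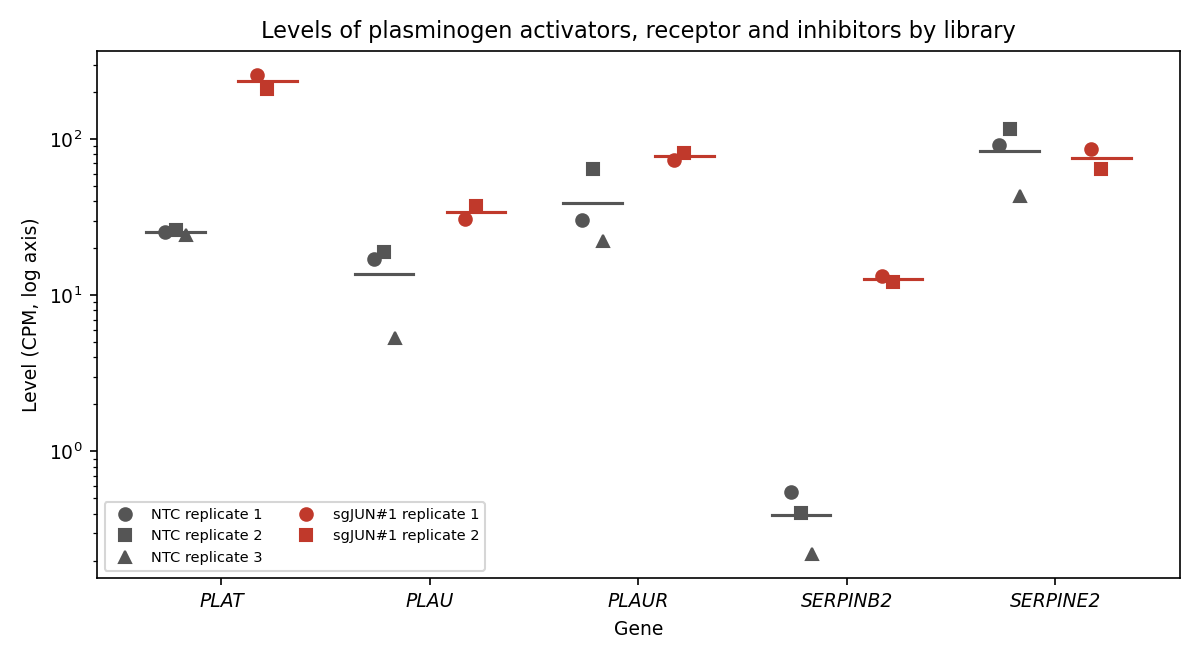
Level of each member in every library, in CPM on a log axis, with NTC libraries in grey and sgJUN#1 libraries in red; horizontal lines are group means and marker shapes are replicate numbers. PLAT sits at 24.5 to 26.4 CPM in NTC but at 211 and 259 CPM with sgJUN#1, SERPINB2 at most at 0.548 CPM in NTC, and the groups overlap for SERPINE2.

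All 5 members passed the filter on low counts, but SERPINB2, at 1 to 2 counts in each NTC library, did so only through its sgJUN#1 libraries. By edgeR's quasi-likelihood test 2 of the 5, PLAT and SERPINB2, were called higher, where 0.206% of the 13616 tested genes were called in either direction and 0.0808% as higher. DESeq2 also called these genes, where it called 0.473% of its genes as higher. The members were chosen for this difference, and nothing is read from the count. In 4 of the 5, all except SERPINE2, both libraries of sgJUN#1 exceeded every NTC library, which held for 12.2% of the tested genes. In NTC the order of the mean levels was SERPINE2, PLAUR, PLAT, PLAU and SERPINB2. Reads at the 3′ end do not increase with transcript length, so CPM values of different genes were compared without a correction for length. PCR copies may count as separate reads, and reads in overlapping genes may count more than once. The ranges of SERPINE2 and PLAUR overlapped in NTC, although SERPINE2 was the higher in each of the 3 libraries. Those of PLAUR and PLAT overlapped too, and there PLAT was the higher in replicate 3 alone. PLAU lay below PLAT in each of the 3 libraries. In sgJUN#1 the order was PLAT, PLAUR, SERPINE2, PLAU and SERPINB2. PLAUR and SERPINE2 overlapped there, and the gaps above and below them were wider than the spread of the libraries.

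Within the NTC libraries the spread differed between the members. The CPM values of these libraries entered the choice of the genes, so their spread is a description too. The highest NTC value of PLAT was 1.08 times the lowest, and among the 7826 tested genes with an NTC mean of 10 to 100 CPM only 3.40% had a smaller ratio, against a median ratio of 1.44. The same ratio was 3.60 for PLAU, 2.91 for PLAUR and 2.67 for SERPINE2, and 98.6%, 97.1% and 95.9% of these genes had a smaller one. JUN itself had a ratio of 3.89, larger than in 98.8% of these genes. PLAT, PLAU, PLAUR, SERPINE2 and JUN were all highest in NTC replicate 2 and lowest in NTC replicate 3, an order found in 16.2% of the tested genes. SERPINB2, at 1 to 2 counts in each NTC library, was highest in NTC replicate 1 instead. For PLAT, at 65 to 111 counts in each NTC library, the differences were within counting error. Neither its place in the shared order nor its low ratio shows more than that. For PLAU, PLAUR, SERPINE2 and JUN the differences were larger. The part of these NTC libraries in the differences between the groups is given above where a member turned or moved without one of them. In sgJUN#1, replicate 2 had more JUN, PLAU and PLAUR than replicate 1, while PLAT, SERPINE2 and SERPINB2 were higher in replicate 1. For PLAU, PLAUR and SERPINB2 these differences were within counting error, so no order of the sgJUN#1 libraries is read from them.

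Shares within a library do not depend on how libraries are scaled. PLAT took 60.0%, 58.0% and 82.2% of the counts of both activators in NTC replicates 1, 2 and 3, with Wilson 95% intervals of 52.1 to 67.4%, 48.8 to 66.8% and 74.9 to 87.8%. In sgJUN#1 replicates 1 and 2 it took 89.4% (87.6 to 90.9%) and 84.9% (82.1 to 87.4%). PLAT thus already had more counts than PLAU in the control cells, and the interval of NTC replicate 3, where PLAU was lowest, overlapped those of sgJUN#1. The PLAU counts may hold reads of C10orf55, a limit that these intervals do not cover. The mean share was 66.8 ± 13.4% in NTC (SD, n = 3) and 87.1 ± 3.14% in sgJUN#1 (SD, n = 2), a difference of 20.4 percentage points.

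Of the counts of both inhibitors, SERPINB2 and SERPINE2, SERPINB2 took 0.595%, 0.348% and 0.505% in NTC replicates 1, 2 and 3, with an upper bound of at most 2.80%. In sgJUN#1 replicates 1 and 2 it took 13.3% (10.6 to 16.7%) and 15.8% (11.5 to 21.3%), so SERPINE2 stayed the larger inhibitor transcript of the pair in both groups. The mean share was 0.48 ± 0.12% in NTC (SD, n = 3) and 14.6 ± 1.74% in sgJUN#1 (SD, n = 2), a difference of 14.1 percentage points. These intervals cover counting error only.

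**Figure D2:**
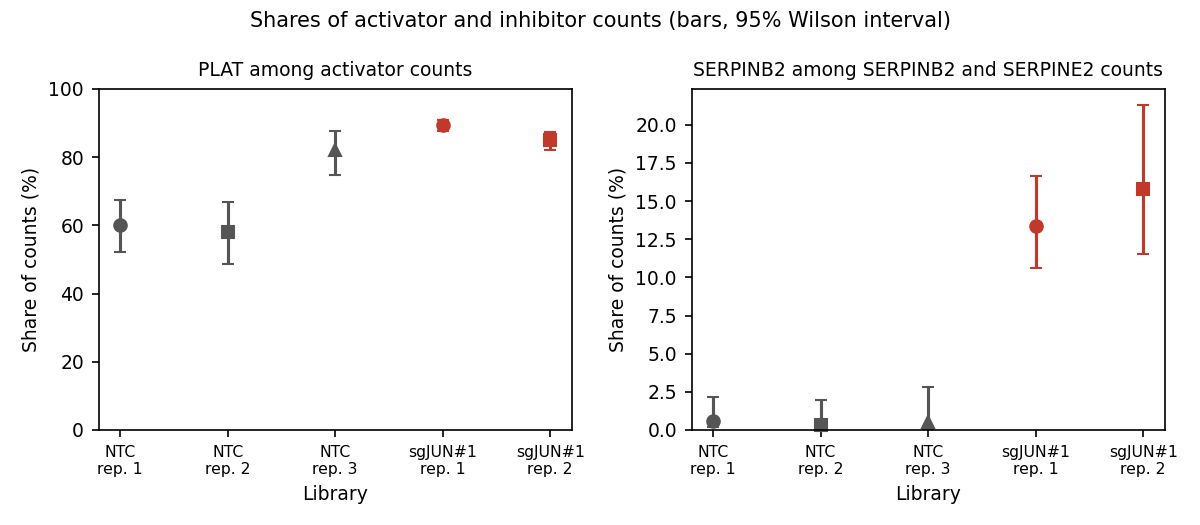
Share of PLAT in the counts of PLAT and PLAU (left) and of SERPINB2 in the counts of SERPINB2 and SERPINE2 (right) in each library, in percent, with 95% Wilson intervals as bars. The PLAT share is 58.0% to 82.2% in NTC and 84.9% and 89.4% in sgJUN#1, and the SERPINB2 share is under 1% in NTC and 13.3% and 15.8% in sgJUN#1.

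To see whether the rest of the plasminogen system moved, 44 other genes were listed by function, and 28 of them had enough counts to be tested. With edgeR's quasi-likelihood test 0 of the 28 passed the adjusted threshold, where 0.206% of all tested genes did. At an unadjusted p under 0.05 there were 7, of which 5 were higher and 2 lower, or 25.0% against 8.38% of all tested genes. DESeq2 called 2 of the list, against 0.975% of the genes it tested. The median log2 fold change of the 28 was 0.11 and that of all tested genes -0.01, with 17 higher and 11 lower. Both libraries of sgJUN#1 exceeded every NTC library in 6 of the 28 (21.4%, against 12.2% of all tested genes) and lay below every one in 5 (17.9%, against 12.8%).

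Of the proteases that cut plasminogen activators to their active forms, and of plasminogen itself, 3 of 8 genes were tested and 0 passed. Plasminogen (PLG) had at most 2 counts in any library, so the transcript of the activators' substrate was not detectable above the limit of 3 counts. Plasminogen protein, in the cells or in the serum of the medium, was not measured. CTSB, which encodes the protease cathepsin B, averaged 226 ± 45.4 CPM (SD, n = 3) over the NTC libraries and 367 ± 33.8 CPM (SD, n = 2) over those of sgJUN#1, with a log2 fold change of 0.70 (SE 0.216) and an edgeR adjusted p of 0.369. ST14, which encodes the membrane protease matriptase, showed a log2 fold change of 0.90 (SE 0.322) and an edgeR adjusted p of 0.474.

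Of the receptor and clearance genes, 10 of 11 were tested and 0 passed. The heterotetramer of ANXA2 and S100A10 binds plasminogen and PLAT at the cell surface. ANXA2 measured 1422, 1289 and 1051 CPM over NTC replicates 1, 2 and 3 and reached 2116 and 1979 CPM with sgJUN#1, without overlap, with a log2 fold change of 0.71 (SE 0.189) and an edgeR adjusted p of 0.281. Its partner S100A10 averaged 576 ± 52.9 CPM (SD, n = 3) over the NTC libraries and 607 ± 52.0 CPM (SD, n = 2) over those of sgJUN#1, with a log2 fold change of 0.08 (SE 0.184). ENO1, a glycolytic enzyme that also binds plasminogen, showed a log2 fold change of 0.27 (SE 0.214), and IGF2R, which binds PLAUR, had -0.18 (SE 0.238).

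The lowest log2 fold changes of the list were those of LRP1 and MRC2, while SORL1, another endocytic receptor of the same group, stood at 0.71. LRP1, the endocytic receptor that removes activators in complex with their inhibitors, measured 19.5, 14.6 and 29.4 CPM over NTC replicates 1, 2 and 3 but only 3.09 and 9.62 CPM with sgJUN#1, without overlap. Its log2 fold change was -1.85 (SE 0.491), with an edgeR adjusted p of 0.281 and a DESeq2 adjusted p of 0.0380. MRC2, an endocytic collagen receptor that associates with PLAUR, showed a log2 fold change of -1.01 (SE 0.246) and an edgeR adjusted p of 0.219. ST14, LRP1, MRC2 and SORL1 were picked with their values in view, as were CDCP1 and THBD.

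Of the inhibitors besides the members, 6 of 11 were tested and 0 passed, with log2 fold changes from -0.86 to 0.34. The most abundant was SPINT2, a membrane-bound inhibitor of serine proteases, which averaged 91.0 ± 33.6 CPM (SD, n = 3) over the NTC libraries and 116 ± 32.9 CPM (SD, n = 2) over those of sgJUN#1, with a log2 fold change of 0.34 (SE 0.325) and an edgeR adjusted p of 0.821. Of the substrates and signalling partners, 9 of 14 were tested and 0 passed. CDCP1, a surface protein that plasmin and urokinase can cut, measured 44.7, 86.0 and 36.4 CPM over NTC replicates 1, 2 and 3 and reached 141 and 153 CPM with sgJUN#1. The groups did not overlap, and the log2 fold change of 1.41 (SE 0.328) had an edgeR adjusted p of 0.213 and a DESeq2 adjusted p of 0.00781. CDCP1 passed the edgeR threshold without NTC replicate 2, the highest of the NTC libraries, with a log2 fold change of 1.85 and an adjusted p of 0.0200. THBD, the thrombin receptor thrombomodulin, showed a log2 fold change of 1.11 (SE 0.335) and an edgeR adjusted p of 0.361. F3, tissue factor, had 0.33 (SE 0.341), and the integrin subunit ITGB5 had -0.26 (SE 0.185).

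**Figure D3:**
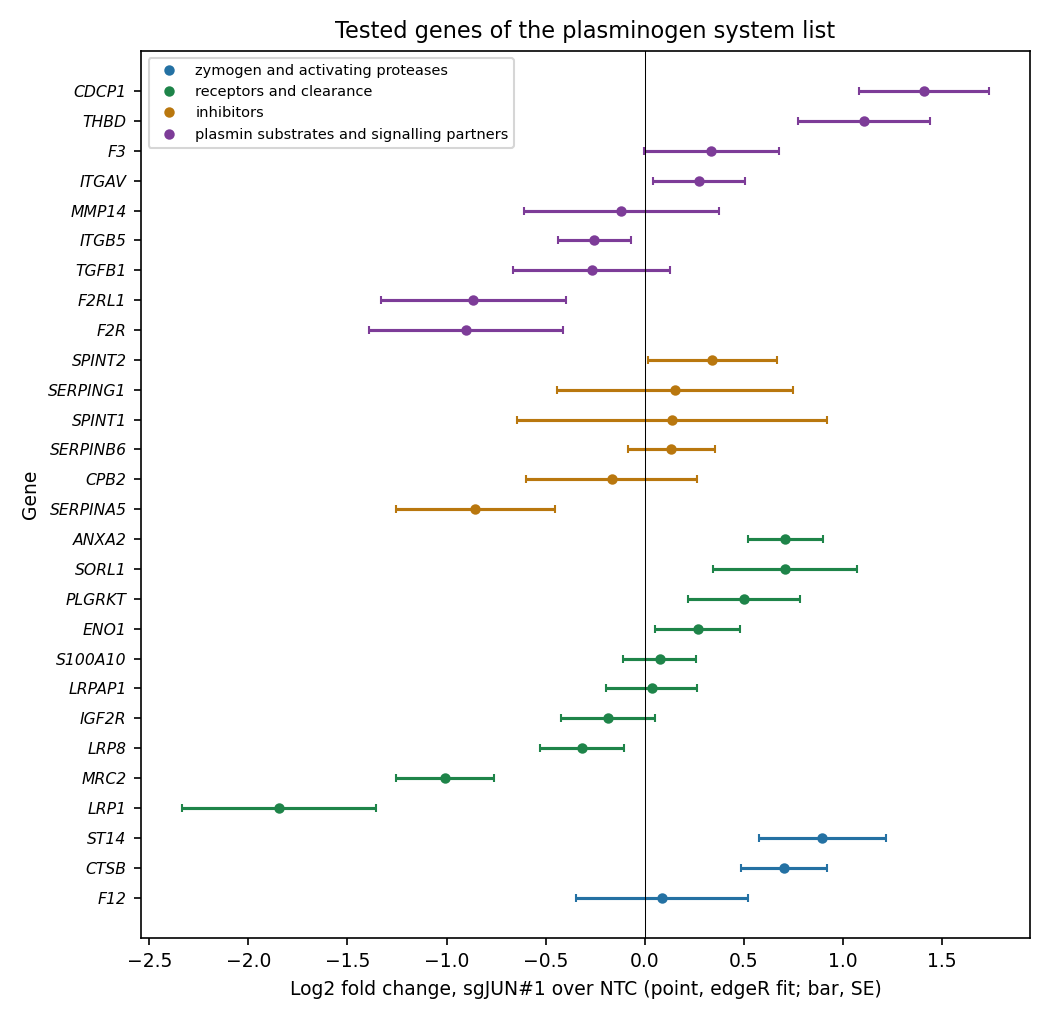
Log2 fold change of the 28 tested genes of the plasminogen system list, sgJUN#1 over NTC, from the edgeR fit; points are fitted values, bars their SE, and colours the 4 functional groups. The values run from -1.85 for LRP1 to 1.41 for CDCP1, and 0 of the 28 passed the adjusted threshold.

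The position of the members was not used to choose them, and their nearest neighbours were compared as well. Of 30 genes, 3 on each side of every member, 22 were tested. With edgeR 0 of them passed the adjusted threshold, against 0.206% of all tested genes, and 1 (4.55%) had an unadjusted p under 0.05, against 8.38%. That gene was SERPINB7, which passed the filter on low counts only through its sgJUN#1 libraries. DESeq2 called 0, against 0.975%. The median log2 fold change of the neighbours was 0.05. AP3M2, which ends 3045 bp from PLAT, had 32.4 CPM in NTC and 31.7 CPM in sgJUN#1, with a log2 fold change of -0.02 (SE 0.222). IKBKB, on the other side of PLAT at 63593 bp, had -0.24 (SE 0.225). The tested genes closest to PLAU were CAMK2G at -0.38 (SE 0.269) and VCL at 0.13 (SE 0.191), those closest to PLAUR were CADM4 at -0.64 (SE 0.652) and SMG9 at 0.08 (SE 0.333), and those closest to SERPINE2 were MRPL44 at 0.12 (SE 0.300) and CUL3 at -0.16 (SE 0.201).

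SERPINB2 lies in a cluster of clade B serpin genes on chromosome 18. SERPINB7, the next gene of the table on one side at 66316 bp, had 6, 3 and 4 counts in NTC and 17 and 17 in sgJUN#1, without overlap, and a log2 fold change of 1.88 (SE 0.534) and an edgeR adjusted p of 0.315. SERPINB10, at 4070 bp on the other side, had at most 3 counts in any library, and SERPINB8, the closest tested gene there, showed a log2 fold change of 0.49 (SE 0.278) and an edgeR adjusted p of 0.692. Of 12 other clade B serpins, 5 were tested, and 0 passed. Their log2 fold changes ran from 0.13 to 1.88, and both libraries of sgJUN#1 exceeded every NTC library in 3 of them, which held for 12.2% of all tested genes. SERPINB7, which had the highest value and is among the 3, passed the filter on low counts only through its sgJUN#1 libraries. Nothing is read from this number.

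**Figure D4:**
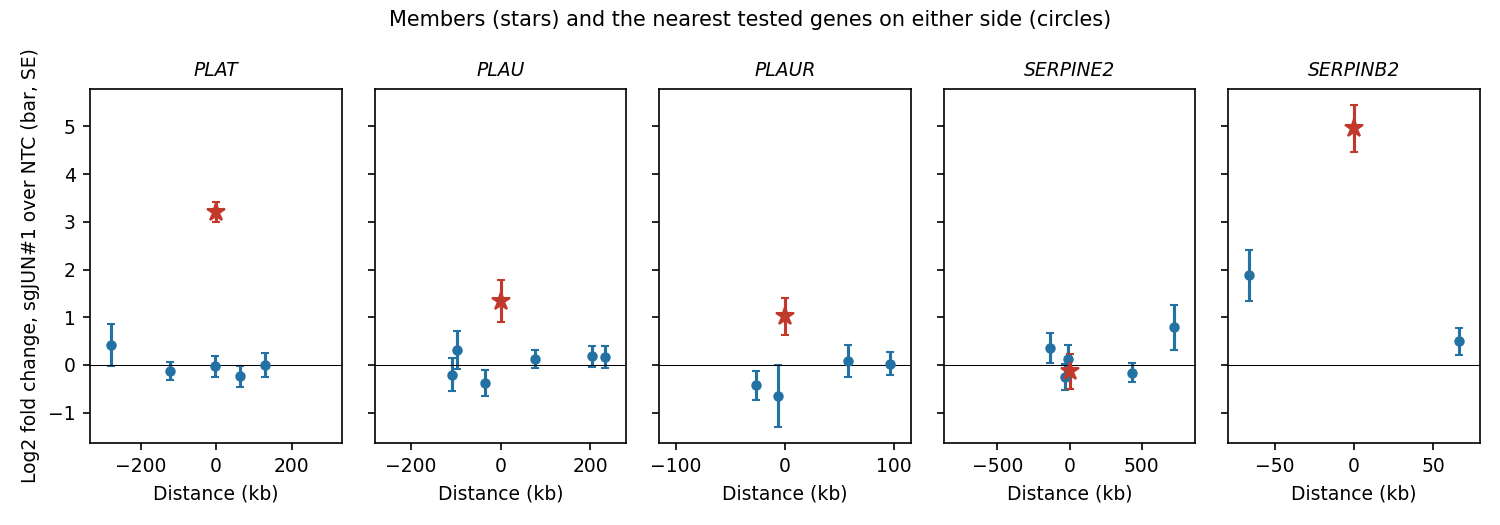
Log2 fold change, sgJUN#1 over NTC, of each member (star, at 0 kb) and of the tested genes among the 3 nearest on each side (circles), against the distance between gene ends in kb; bars are SE, and C10orf55, which overlaps PLAU, is left out. PLAT at 3.21 and SERPINB2 at 4.96 stand above their neighbours, whose highest value is 1.88 for SERPINB7.

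The genes most like PLAT and SERPINB2 over the 5 libraries were found by the root mean square difference of log2 CPM relative to the NTC mean. The closest gene to PLAT was SERPINB2, with a difference of 0.45, and PLAT was likewise the closest to SERPINB2. The next for PLAT were DSC2, a desmosomal cadherin, at 0.50 and ALDH1A3, an enzyme of retinoic acid synthesis, at 0.52. DSC2 averaged 5.53 ± 1.24 CPM (SD, n = 3) over the NTC libraries and 32.6 ± 6.27 CPM (SD, n = 2) over those of sgJUN#1. The next for SERPINB2 were JUN at 0.64 and MAN1A1, a Golgi mannosidase, at 0.81. The prior count of 2 in log2 CPM weighs on SERPINB2, which had 1 to 2 counts in each NTC library. On this scale the difference between the group means was 3.84 for SERPINB2 and 3.17 for PLAT, where the fitted log2 fold changes were 4.96 and 3.21. Their likeness is therefore a description of this scale. With 5 libraries in 2 groups it mostly measures the step between the groups, on which PLAT and SERPINB2 were chosen.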

How the data were processed

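Messenger RNA of 3 NTC and 2 sgJUN#1 libraries was measured by 3′ end sequencing with the QuantSeq forward kit. According to the methods of the study and the submitters' processing notes, the authors trimmed reads with cutadapt 4.2, aligned them to hg19 with Bowtie2 2.3.5.1 and counted them over genes with countOverlaps. The methods name another Bowtie2 version than the notes. The deposited values are raw counts per Entrez gene, not normalised. The gene annotation and the handling of strand, of reads with several alignments and of molecular identifiers are not given in the sources used here, so reads in overlapping genes can be counted more than once and PCR copies may count as separate reads.

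Symbols came from NCBI RefSeq (GRCh38.p14 names), matched for 23308 of 23459 genes. Positions came from GENCODE version 44 on GRCh37, which corresponds to hg19, and promoter sequences from RefSeq on GRCh38.p14.

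Counts were tested with edgeR 4.0.16 in R 4.3.3 (filterByExpr, TMM, robust quasi-likelihood F test, group as the only term, all 5 libraries). The filter kept 13616 genes, p-values were adjusted over all of them by the Benjamini-Hochberg method, and the threshold was 0.05. The SE was obtained by dividing the size of each log2 fold change by √F. CPM used TMM-scaled library totals, and log2 CPM a prior count of 2. The fit was tested on simulated data. DESeq2 1.42.0, other scalings and filters, a replicate block and each library left out were alternatives. The study calls the replicates of this comparison biological. Labels do not say that they were separate cultures, so p-values measure the spread between these libraries.

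The members, lists and tests were chosen with earlier results of these data known. The text names the members and JUN. It also names listed genes past the threshold, the 8 most abundant genes of the plasminogen system list, the nearest tested neighbours and overlapping genes, and the 3 genes most like PLAT or SERPINB2. Exceptions are stated. One item that the rules cover is not reported here, and it was left out of the lists and shares.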

Additional observations from a re-analysis of the deposited data

How the results depend on the processing

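The count of 28 genes past the threshold was 136 with DESeq2, 148 with no filter, 18 where every library had to hold 10 counts and 103 with the replicate block, and with 1 library left out at a time it was 10 to 57 (10, 56 and 57 without NTC replicate 1, 2 or 3). For these differences the cause was not tested. Of the plasminogen system list, 2 genes (LRP1 and CDCP1) were called with DESeq2, 1 (CDCP1) with no filter and 1 (CDCP1) with the replicate block, and 0 to 1 when a library was left out. No neighbouring gene was called in any of the 11 alternatives. The median log2 fold change of the list, 0.111, was -0.010 without NTC replicate 2 and up to 0.135 without another library.

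PLAT kept log2 fold changes of 3.05 to 3.35 over 11 alternatives, and SERPINB2 4.61 to 5.31 over 10. SERPINB2 could not be fitted with at least 10 counts in every library. PLAU ran from 0.91 to 1.63, PLAUR from 0.73 to 1.57 and SERPINE2 from -0.45 to 0.17, with 0.062 without sgJUN#1 replicate 2. The difference in the PLAT share of activator counts, 20.4 percentage points, was 16.0 points without NTC replicate 2 and 28.1 points without NTC replicate 3, the ends of its range when a library was left out. The difference in the SERPINB2 share of inhibitor counts, 14.1 percentage points, was 12.9 to 15.3 points when a library was left out.

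Replicates 1 and 2 exist in each group, and no label ties a number to a date or culture. Replicate 3 exists in NTC alone, so it adds nothing to the group difference in the fit with a replicate block. Across genes, the replicate 1 to 2 difference of NTC correlated with the same difference of sgJUN#1 at only 0.0146, so no pairing by number was assumed. The replicate block gave log2 fold changes of 3.18 for PLAT, 0.91 for PLAU, 0.81 for PLAUR, -0.45 for SERPINE2, 4.62 for SERPINB2 and 2.82 for JUN. JUN passed with the block, with DESeq2 and without NTC replicate 2 or 3. Without an sgJUN#1 library, the lone other one was assumed to vary like the NTC libraries. SERPINB2 in NTC is limited by depth, at 1 to 2 counts in each library.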
